A study of Mus musculus with 3 samples.

Results

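The transcription factor genes *Sox4*, *Sox9*, *Sox7*, *Sox17* and *Sox18* were followed by symbol through single-cell libraries of mouse intestinal organoids. They are 5 of the 19 *Sox* genes and 5 of the 32285 genes in the deposited matrices. The other 14 *Sox* genes were used for comparison. Sox proteins bind DNA through a shared high-mobility-group (HMG) box and are grouped by its sequence. *Sox4* belongs to group C and is known in progenitor cells. *Sox9*, of group E, is a Wnt target of the intestinal crypt that Paneth cells need. *Sox7*, *Sox17* and *Sox18* form group F, which acts in the formation of blood and lymphatic vessels, and *Sox17* is also a regulator of embryonic endoderm and of arteries.

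Organoids are epithelial structures cultured in a matrix. The 3 groups had 1 library apiece, all on the C57BL/6 strain, from mice 7 to 8 weeks old that received 2 doses of 2 mg tamoxifen. WT mice were labelled wild type, and were taken 21 days after tamoxifen. LApc mice carried Lgr5-CreERT2 with Apc fl/fl and were taken at 29 days. For taking crypts for organoids, the study's methods give earlier days than that. LApcL mice carried Lgr5-CreERT2, Apc fl/fl and Lef1 fl/fl and were taken at 21 days. *Apc* encodes a brake on Wnt signalling and *Lef1* a nuclear partner of β-catenin. Organoids were used at passage 3 on day 6. The study names the Cre allele Lgr5-EGFP-IRES-CreERT2, and in another experiment it calls control mice with this allele alone WT. The Cre is driven from *Lgr5* and is therefore meant to act in cells that express this stem cell gene, and days after tamoxifen differed together with genotype between LApc and the other groups. The study states that *Lef1* deletion was checked in the organoids, and the share of cells that carried it in these libraries was not analysed here.

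Each barcode marks a droplet, in most cases a single cell, and each unique molecular identifier (UMI) a captured transcript. The libraries held 10706 to 12068 barcodes. In each, 3195 barcodes (26.5% to 29.8%) were the same sequences in all 3 libraries. These shared barcodes are one set seen 3 times and are not replicates. Which cells or experiment they came from is not given in the sources used here, so WT, LApc and LApcL name only the matrix in which a shared barcode was counted, not its genotype. They were shallow, with medians of 1483 to 2176 UMIs. The 7 endothelial markers *Pecam1*, *Cdh5*, *Kdr*, *Tie1*, *Egfl7*, *Emcn* and *Cldn5* summed to 4988 to 4993 CPM (UMIs of a gene scaled to a group total of 1e6) in them, whereas *Epcam*, which marks epithelium, stood at 2.81 to 14.8 CPM. The shared barcodes thus carried endothelial transcripts and went against the organoid label. Of 8100, 7461 and 8769 barcodes found in 1 library only in WT, LApc and LApcL, 1635, 2456 and 2190 had 10000 UMIs or more. Among the latter, 427, 295 and 259 had over 20% mitochondrial UMIs and were left out. The library-specific barcodes, found in 1 library only and kept at 10000 UMIs or more and at most 20% mitochondrial UMIs, numbered 1208 in WT, 2161 in LApc and 1931 in LApcL. Their median depths were 38073.5, 34377 and 32584 UMIs. In them *Epcam* stood at 1192 to 1967 CPM and the 7 endothelial markers summed to 4.93, 29.0 and 12.9 CPM. *Lef1* UMIs were found in 995 of 2161 library-specific LApc barcodes and still in 670 of 1931 LApcL barcodes after each was thinned to 10000 UMIs. In WT, LApc and LApcL, *Apc* stood at 20.0, 88.5 and 95.4 CPM and so was not lower where it is labelled as deleted. The deleted exons are not given here, so the level of neither gene checks the labels. No group has a replicate, so no test was made. Intervals in brackets are exact at the 95% level and cover counting error only.

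Between pairs of members, 138 to 177 of 210 bases were identical in the box that names the family. The first 60 bases of the shared stretch of the box are shown, in lower case where the 5 genes are not all alike. Bases in capitals are the 30 that are identical in all 5 genes, read 5′ to 3′ on the coding strand of GRCm38.
Sox4: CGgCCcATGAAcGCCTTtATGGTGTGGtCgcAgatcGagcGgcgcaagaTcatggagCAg
Sox9: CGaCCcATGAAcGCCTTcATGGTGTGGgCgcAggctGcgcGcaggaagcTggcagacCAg
Sox7: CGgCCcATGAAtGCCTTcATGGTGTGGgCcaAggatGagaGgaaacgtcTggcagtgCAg
Sox17: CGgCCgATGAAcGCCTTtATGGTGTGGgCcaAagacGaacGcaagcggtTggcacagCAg
Sox18: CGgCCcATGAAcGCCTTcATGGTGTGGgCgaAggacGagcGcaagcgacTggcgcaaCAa

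The *Sox4* stretch lies at chr13:28952782-28952841 on the minus strand in the only exon of the gene, which spans 28948919 to 28953713. That of *Sox9* lies at chr11:112782903-112782962 on the plus strand, in exon 1 of 3. That of *Sox7* lies at chr14:63943894-63943953 on the plus strand, in exon 1 of 2. The *Sox17* stretch lies at chr1:4493140-4493199 on the minus strand, in exon 4 of 5 of transcript Sox17-201. That of *Sox18* lies at chr2:181671222-181671281 on the minus strand, in exon 1 of 2. Over 210 bases of the box, *Sox17* and *Sox18* were identical at 84.3% of positions and *Sox7* and *Sox17* at 82.4%, against 65.7% for *Sox4* and *Sox18*. The longest run of bases shared by transcripts of any pair was 29, between *Sox17* and *Sox18*. *Sox4* and *Sox17* each overlap a non-coding gene on the other strand, Gm26735 and Gm37587, and whether counting used strand is not given in the sources used here. Gm37587 had 0, 25 and 0 UMIs in library-specific WT, LApc and LApcL barcodes, against 0, 2268 and 274 for *Sox17*.

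*Sox4* was found in every library and in both kinds of barcode. In library-specific barcodes its level was 133 CPM in WT (130 to 136), 692 CPM in LApc (687 to 698) and 965 CPM in LApcL (958 to 972). WT was the lowest and LApcL the highest, and no intervals met. In shared barcodes the levels were 108 CPM (101 to 115), 111 CPM (103 to 121) and 121 CPM (112 to 130), with overlapping intervals. Those of WT and LApc lay below the library-specific WT interval, and that of LApcL just reached it.

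*Sox9* followed the same order among library-specific barcodes and was nearly missing from the shared ones. It measured 69.9 CPM in WT (67.5 to 72.2), 185 CPM in LApc (182 to 187) and 223 CPM in LApcL (219 to 226). In shared barcodes only 6, 5 and 6 *Sox9* UMIs were counted, or 0.733, 0.900 and 0.997 CPM. That is 1.05%, 0.487% and 0.448% of the library-specific level, beside 0.236%, 0.586% and 0.751% for *Epcam*.

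The group F genes were at their highest in shared barcodes. *Sox7* measured 104, 106 and 103 CPM there in WT, LApc and LApcL. *Sox17* measured 94.7, 95.01 and 89.9 CPM, and *Sox18* measured 116, 125 and 112 CPM. Among shared barcodes no member passed 2-fold between libraries, where 0.067% of tested genes were higher and 0.0745% lower in LApcL than in LApc, and 0.197% higher and 0.277% lower in LApc than in WT.

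In library-specific barcodes the group F genes parted from each other. *Sox7* had 1, 19 and 17 UMIs in WT, LApc and LApcL, which is 0.0205, 0.209 and 0.211 CPM. This is 0.0196%, 0.198% and 0.205% of its shared level, beside 0.0988%, 0.581% and 0.257% for the sum of the 7 endothelial markers. Single markers ran from 0.00719% to 0.285% in WT, from 0.00845% to 1.21% in LApc and from 0.0130% to 0.883% in LApcL, so the *Sox7* trace lay within their range in each library. *Sox17* had 0 UMIs in 48895147 WT UMIs, with an exact upper limit of 0.0754 CPM, and of 0.0614 CPM if a count of 0 is taken as a floor of 3. It had 2268 UMIs in LApc, or 25.0 CPM (23.9 to 26.0), and 274 in LApcL, or 3.40 CPM (3.01 to 3.83). The LApc level was 26.3% of the shared level, where the endothelial markers gave 0.581% as a sum and at most 1.21% singly. *Sox18* had 3 UMIs in WT, 200 in LApc (2.20 CPM, 1.91 to 2.53) and 3 in LApcL. Its LApc level was 1.76% of the shared level.

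**Figure D1:**
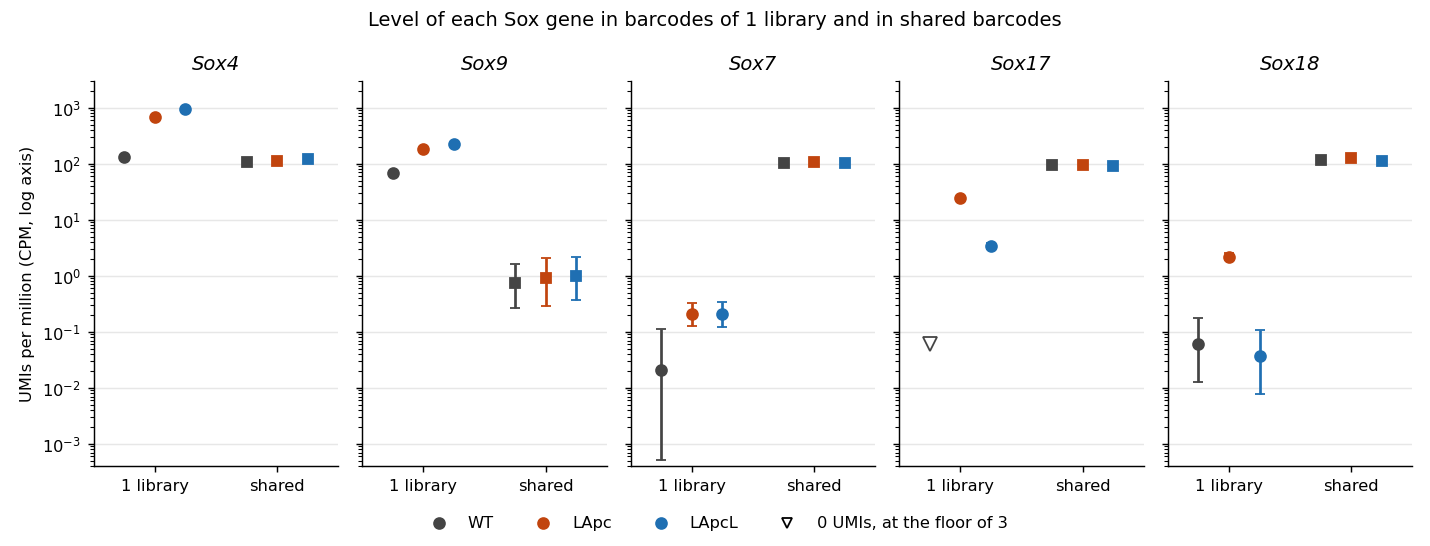
Level of each member in CPM (log axis) in barcodes of 1 library (circles) and in shared barcodes (squares), by library, with exact Poisson 95% intervals. *Sox4* and *Sox9* lie highest in library-specific LApcL barcodes, *Sox7*, *Sox17* and *Sox18* lie near 100 CPM in all shared barcodes, and library-specific *Sox17* runs from 0 UMIs in WT (drawn at its floor of 3 counts) to 25.0 CPM in LApc and 3.40 CPM in LApcL.

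Between LApcL and LApc, the comparison of the *Lef1* genotype, the members moved in opposite directions. Ratios are log2 of CPM + 1 in library-specific barcodes, a scale that understates changes of low genes. *Sox4* was higher in LApcL by 0.48 (0.46 to 0.49) and *Sox9* by 0.27 (0.24 to 0.30). *Sox7* differed by 0.00, with an interval of -0.17 to 0.18. *Sox17* was lower at -2.56 (-2.71 to -2.41) and *Sox18* at -1.63 (-1.68 to -1.50). In intestinal tumours in vivo the study reported the opposite directions for *Sox17* and *Sox9*. There *Sox17* was higher and *Sox9* lower in LApcL than in LApc, in RNA and by immunostaining. Those are other cells than these organoids, and the cause of the difference was not tested. With 200 against 3 UMIs, the *Sox18* level in CPM was 59.1 times as high in LApc (19.9 to 289). So 2 of 5 members were at least 2-fold lower and 0 at least 2-fold higher, where 3.75% of 17305 tested genes were lower and 1.27% higher. The members' median was 0.00 and that of all tested genes also 0.00. Without the cluster led by *Npy*, described further on, the *Sox17* ratio was -1.61 and the *Sox18* ratio -1.19. With 10 CPM added in place of 1 the *Sox18* ratio was -0.28, no longer past 2-fold.

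Between LApc and WT, the comparison of the *Apc* genotype, 4 of 5 members were at least 2-fold higher in LApc and 0 lower. Of 17590 tested genes 19.1% were higher and 7.9% lower. *Sox4* differed by 2.37 on the log2 scale (2.34 to 2.41) and *Sox9* by 1.39 (1.34 to 1.44). *Sox17*, with 0 UMIs in WT, was at least 407-fold higher in CPM, taking 3 counts as the WT floor. *Sox18* was 35.9 times as high (12.1 to 175), from 200 against 3 UMIs, with a log2 ratio of 1.59. *Sox7* rested on 19 against 1 UMI, with a log2 ratio of 0.24 that did not reach 2-fold on this scale. The median log2 ratio was 1.59 for the members and 0.27 for all tested genes.

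Those ratios depend on how the libraries are scaled and on which WT cells are counted. Median-of-ratios factors shift the LApc against WT ratios of high genes by -0.41 and those of low genes by less, since 1 CPM is added, and bring the median of all tested genes from 0.27 to 0.05. They bring *Sox9* to 0.98, just short of 2-fold, and the count to 3 of 5, with 12.6% of all tested genes then higher and 11.6% lower. Of the 1208 WT barcodes, 726 fell in an enterocyte-like cluster that no LApc barcode joined. Without it the *Sox4* ratio was 1.50 and the *Sox9* ratio 1.06. With 10 CPM added, the *Sox18* ratio was 0.28. LApcL against WT gave at least 2-fold higher values for *Sox4*, *Sox9* and *Sox17* of the 4 members with at least 10 UMIs, where 20.3% of tested genes were higher and 8.96% lower.

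Against library-specific barcodes of the same library, shared barcodes held at least 2-fold more *Sox7*, *Sox17* and *Sox18* in every library, and at least 2-fold less *Sox9*. *Sox4* was also past 2-fold lower in LApc and LApcL. The share of all tested genes that was higher was 29.4% in WT, 20% in LApc and 22.3% in LApcL, and the share that was lower 17.7%, 21% and 21.8%. The *Sox17* contrast differed among the 3 libraries. Its log2 ratio of shared to library-specific barcodes was 6.58 in WT, where the library-specific count was 0, 1.89 in LApc (1.75 to 2.02) and 4.37 in LApcL (4.19 to 4.55). *Sox4* differed by -0.30 in WT, by -2.62 in LApc and by -2.99 in LApcL. The shared *Sox4* level was 81.3% of the library-specific level in WT, and so far above the *Epcam* trace.

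Shares of barcodes with a UMI were compared after each barcode was thinned at random to the same number of UMIs. At 10000 UMIs, *Sox4* was found in 48.4% of WT (45.6 to 51.3), 93.8% of LApc (92.6 to 94.7) and 96.5% of LApcL (95.6 to 97.3) library-specific barcodes. *Sox9* was found in 38.2%, 59.7% and 73.8%. Barcodes that had *Sox9* held a mean of 1.75, 3.07 and 2.95 *Sox9* UMIs, so between LApc and LApcL the share of barcodes was higher while the count in positive ones was not. For *Sox4* that mean was 2.91, 7.92 and 10.4 UMIs.

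*Sox17* was found in 0 of 1208 WT barcodes, with an exact upper limit of 0.305%, and of 0.248% by the same floor. It was found in 255 of 2161 LApc barcodes, or 11.8% (10.5 to 13.2), and in 34 of 1931 LApcL barcodes, or 1.76% (1.22 to 2.45). *Sox18* was found in 2, 32 and 1 barcodes and *Sox7* in 1, 3 and 5. Among the group F genes, the LApc library therefore stood apart for *Sox17* and *Sox18* and not for *Sox7*.

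At 500 UMIs both kinds of barcode could be set side by side. *Sox4* was found in 6.13%, 28.1% and 37.3% of library-specific barcodes and in 4.85%, 5.45% and 5.85% of shared ones. *Sox9* was found in 4.39%, 8.84% and 11.7% of library-specific barcodes and in 1 of 3195 shared barcodes in each library. *Sox17* was found in 0%, 1.48% and 0.259% of library-specific barcodes and in 5.92%, 5.79% and 5.04% of shared ones. At this depth *Sox7* was found in 0 library-specific barcodes of any library and in 4.48% to 5.20% of shared barcodes.

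**Figure D2:**
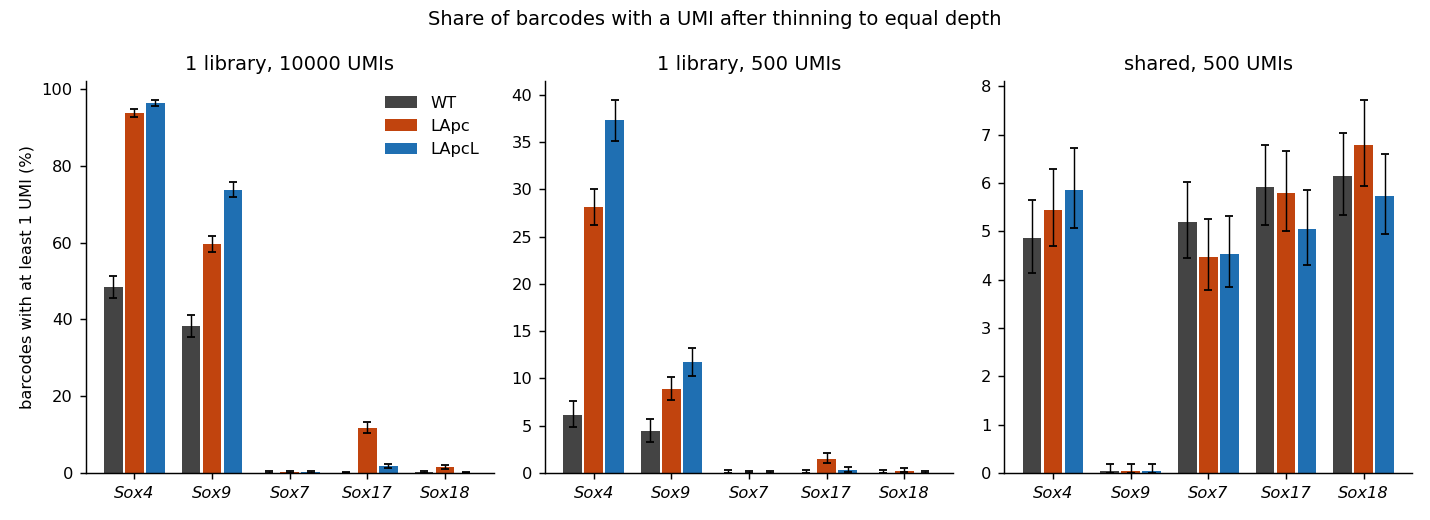
Percent of barcodes with at least 1 UMI of each member after thinning to 10000 UMIs (left, barcodes of 1 library), to 500 UMIs (middle, the same barcodes) and to 500 UMIs (right, shared barcodes), with exact Clopper-Pearson 95% intervals and a separate vertical scale in each panel. *Sox4* and *Sox9* shares are higher in LApcL than in WT in library-specific barcodes, and *Sox17* stands out at 11.8% in LApc.

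Clusters of library-specific barcodes, made without any *Sox* gene, showed where each member lay. A cluster is called by its leading genes unless its markers named it. In WT, *Sox4* was at 64.6 CPM (61.8 to 67.6) in the enterocyte-like cluster of 726 barcodes and at 246 CPM (239 to 254) in the cluster led by *Olfm4*, a stem cell gene, of 409. The enteroendocrine-like cluster, of 37 WT barcodes, had 310 CPM. *Sox9* spanned less in WT, with 58.6 CPM in the enterocyte-like cluster and 87.1 CPM in the one led by *Olfm4*. In LApc, *Sox4* ranged from 455 CPM in the cluster led by histone genes to 997 CPM in the one led by *Prss56*. In LApcL its highest value among groups of at least 40 barcodes was 1198 CPM, in the cluster led by *Col14a1*, which held 842 of the 1931 barcodes.

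Within the 6 clusters that had at least 40 barcodes in both LApc and LApcL, the direction of the *Sox4* difference held throughout. *Sox4* was higher in LApcL in 6 of 6, by 0.24 to 0.85 on the log2 scale. *Sox9* was higher in 6 of 6, by 0.05 to 0.51, and in the cluster led by *Cdc6* and *Ly6g* its interval of -0.11 to 0.20 took in 0. *Sox17* was lower in LApcL in 5 of 6. In the cluster led by *Cdc6* and *Ly6g* it was at 2.18 CPM in LApcL against 35.3 CPM in LApc. Without the 1 barcode that held 25 of the 68 LApc UMIs the LApc level was 23.1 CPM. In the cluster led by Paneth and goblet genes the ratio rested on 5 UMIs in each library, and its interval of -2.20 to 0.64 took in 0. In proliferating-like barcodes it stood at 8.01 and 3.18 CPM.

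The exception was the cluster led by *Car1*, which encodes a carbonic anhydrase. There *Sox17* was at 1.37 CPM in LApc (0.962 to 1.90) and at 21.1 CPM in LApcL (16.6 to 26.4), the opposite direction. Of the 76 *Sox17* UMIs in these 68 LApcL barcodes, 48 came from 1 barcode. Without it the LApcL level was 7.84 CPM. That same barcode held 48 of the 274 *Sox17* UMIs of the whole LApcL library-specific group, which without it stood at 2.81 CPM.

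*Sox17* was concentrated in a few LApc clusters. The cluster led by *Npy*, a neuropeptide gene, held 434 LApc barcodes and 1341 *Sox17* UMIs, or 83.3 CPM (78.9 to 87.8), which is 59.1% of the LApc total. By number of UMIs the cluster led by *Prss56* followed, with 674 UMIs, 24.2 CPM and 29.7% of the total. The LApc cluster led by *Cdc6* and *Ly6g* stood at 35.3 CPM from 68 UMIs, or at 23.1 CPM without its highest barcode. The clusters led by *Npy* and *Prss56* also held 98 and 93 of the 200 *Sox18* UMIs, or 6.08 and 3.34 CPM. Only 12 and 7 LApcL barcodes fell in these 2 clusters, so the level within them could not be compared between the libraries. In the cluster led by *Npy*, *Sox17* was found in 203 of 434 barcodes before thinning.

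**Figure D3:**
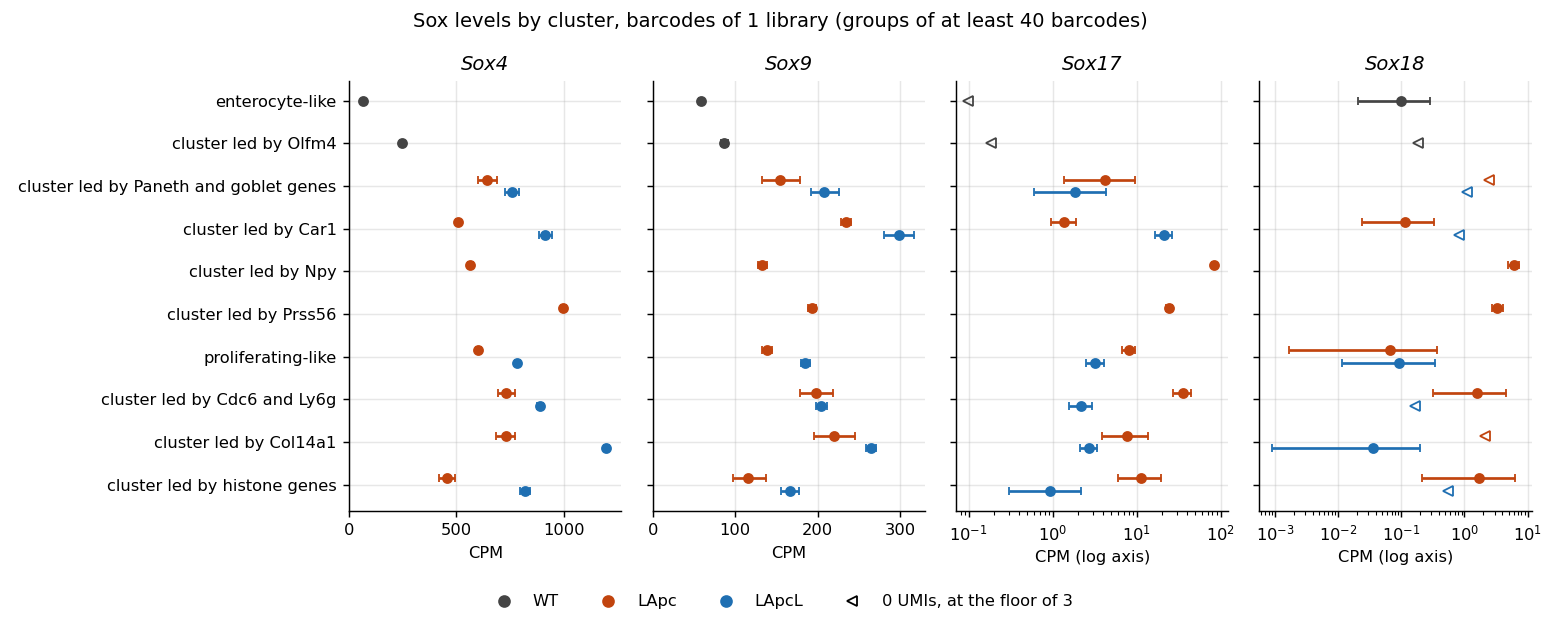
Levels of *Sox4*, *Sox9* (linear axes), *Sox17* and *Sox18* (log axes) in CPM by cluster of library-specific barcodes, for groups of at least 40 barcodes, with exact Poisson 95% intervals. *Sox4* and *Sox9* lie higher in LApcL than in LApc in all 6 clusters with both, and *Sox17* peaks at 83.3 CPM in the LApc cluster led by *Npy*.

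The UMIs of *Sox17* and *Sox18* were unevenly spread over barcodes. In LApc, 150 barcodes with at least 5 *Sox17* UMIs held 75.6% of them, and 1 barcode reached 55. In LApcL, 13 such barcodes held 50% of the UMIs. For *Sox18*, 22 LApc barcodes held 72% of the 200 UMIs. For comparison, the highest 1% of LApc barcodes, 22 in number, held 25.9% of the *Sox17* UMIs, 5.61% of the *Sox4* UMIs and 6.89% of the *Sox9* UMIs.

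The 150 LApc barcodes rich in *Sox17* carried epithelial genes, and single genes of that list went either way. *Epcam* stood at 1538 CPM in them and at 1575 CPM in the 1719 LApc barcodes with no *Sox17* UMI. The simple epithelial keratins *Krt8* (1943 against 1896 CPM) and *Krt18* (2036 against 1837 CPM) were higher in the rich barcodes. *Cdh1*, which encodes E-cadherin, was lower at 154 against 201 CPM, and the claudin gene *Cldn7* at 523 against 679 CPM. Of the defining endothelial genes, *Kdr*, *Tie1* and *Emcn* were at 0 in the rich barcodes and at 0.0975, 0.0557 and 0.0279 CPM in those without *Sox17*, levels too low for a difference to be detectable at this depth. *Pecam1* stood at 1.22 CPM against 1.56 CPM in the barcodes without *Sox17*. The 7 endothelial markers summed to 62.5 CPM in the rich barcodes and to 20.7 CPM in those without, beside 4988 CPM in shared LApc barcodes.

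That difference lay in *Cdh5* and *Egfl7*. *Cdh5*, which encodes VE-cadherin, an adhesion protein of endothelial junctions, stood at 32.8 CPM in barcodes rich in *Sox17*, at 10.1 CPM in barcodes with 1 to 4 *Sox17* UMIs and at 1.02 CPM in those with none. *Egfl7* stood at 27.1, 22.7 and 12.6 CPM. *Cldn5*, an endothelial claudin, went another way, with 1.36 CPM in the rich barcodes, 23.5 CPM in the middle class and 5.35 CPM without *Sox17*. In LApcL, *Cdh5* was at 0 in the 13 rich barcodes. These classes were set after the values were seen and are given as a description.

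Among library-specific barcodes at 10000 UMIs, *Sox17* followed some marker genes. In LApc it stood at 106 CPM in the 299 barcodes with *Npy* and at 15.7 CPM in the 1862 without. With *Prox1*, a homeobox gene of lymphatic vessels and Apc-mutant epithelium, it stood at 37.6 CPM against 8.64 CPM without. With *Mki67*, a proliferation marker, it was at 9.53 CPM against 34.6 CPM, and with *Lgr5* at 17.0 against 31.5 CPM. Of 9 markers split in both libraries, *Prox1*, *Mki67* and *Lgr5* gave the same order in LApcL at lower levels, with intervals apart in both libraries. The LApcL values with and without the marker were 3.85 and 1.07 CPM for *Prox1*, 1.20 and 3.73 CPM for *Mki67*, and 1.41 and 3.94 CPM for *Lgr5*. They rest on 42 and 9, 10 and 41, and 14 and 37 *Sox17* UMIs. At this depth 1 LApcL barcode held 10 of these UMIs, on the higher side of each split. Whether the LApcL intervals stay apart without that barcode was not tested. *Myc*, *Cd44* and *Lyz1* also gave the same order and *Lef1*, *Axin2* and *Muc2* the opposite one, but for each of these the intervals with and without the marker overlapped in at least 1 library. *Sox17* stood at 33.5 CPM with *Lef1* against 23.6 CPM without in LApc, and at 1.34 against 3.33 CPM in LApcL. With *Axin2* the values were 27.9 against 30.8 CPM in LApc, and in LApcL 2.86 CPM (2.12 to 3.77) against 0.546 CPM (0.0138 to 3.04), the latter from 1 UMI. With *Muc2* they were 41.5 against 27.7 CPM, and in LApcL 0 UMIs in 76 barcodes against 2.75 CPM. For *Axin2* and *Muc2* the LApc intervals overlapped as well.

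With *Prox1* and *Mki67*, *Sox4* had the same order as *Sox17*. It stood at 844 CPM with *Prox1* against 533 CPM without in LApc and at 1159 against 800.2 CPM in LApcL, and with *Mki67* at 618 against 785 CPM and at 882 against 1094 CPM. With *Npy* it went the other way, at 587 against 767 CPM in LApc. In WT, *Sox4* stood at 354 CPM in the 114 barcodes with *Lgr5* and at 119 CPM without, and at 106 CPM with *Fabp1*, an enterocyte fatty acid carrier, against 252 CPM without. For *Sox9* the WT values were 113 against 62.2 CPM for *Lgr5*. In LApc the *Lgr5* difference was small for *Sox4*, at 755 against 738 CPM, whereas *Sox9* stood at 227 against 170.5 CPM. In LApcL the *Sox9* values were 216 against 219 CPM, with overlapping intervals. In LApcL barcodes with *Muc2*, a goblet cell mucin, *Sox4* stood at 459 CPM against 1025 CPM without.

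**Figure D4:**
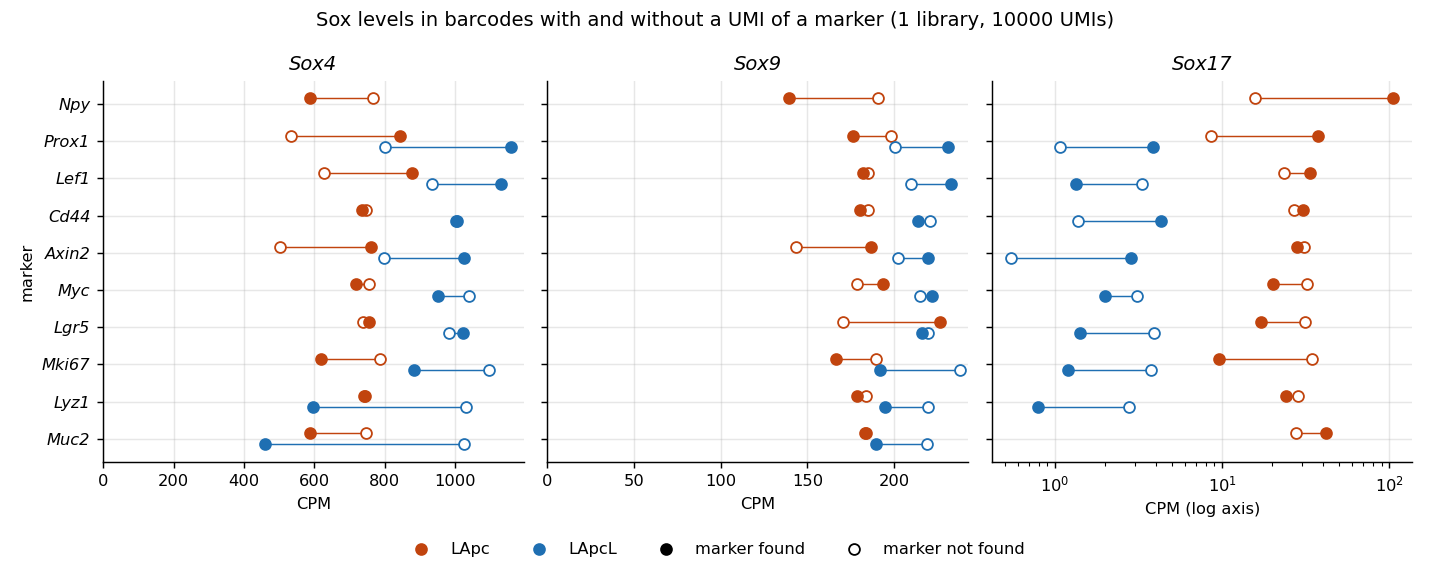
Levels of *Sox4*, *Sox9* (linear axes) and *Sox17* (log axis) in CPM in LApc and LApcL library-specific barcodes at 10000 UMIs, with a UMI of the marker (filled) and without (open). Pairs with 0 *Sox17* UMIs on the marker side, and *Npy* in LApcL, found in under 50 barcodes, are left out. In LApc, *Sox17* moves from 15.7 to 106 CPM with *Npy* and from 34.6 to 9.53 CPM with *Mki67*.

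Barcodes that held a pair of members were counted and set beside the product of the members' own shares. In WT at 10000 UMIs, *Sox4* and *Sox9* were together in 258 barcodes, where the product of their shares gives 224. In LApc at 10000 UMIs, *Sox17* and *Sox18* were found together in 12 barcodes, where the product of their shares gives 3.78. *Sox9* and *Sox17* were together in 121 barcodes, where the product gives 152. *Sox4* was in nearly every barcode and so met *Sox17* in 236, against a product of 239.

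In the shared barcodes the group F genes were split among endothelial clusters. The counts of the 3 libraries were summed per barcode and clustered without *Sox* genes. The orders given here are among the 7 endothelial clusters, and the last cluster, led by collagen genes, is given after them. *Sox17* was highest in the arterial-like cluster of 72 barcodes, at 517 CPM (439 to 606), and next in the capillary-like cluster of 1103, at 223 CPM (209 to 236). The cluster led by *Vwf* and *Selp* (98.4 CPM) and the high endothelial venule-like cluster (86.7 CPM) had overlapping intervals. The clusters led by *Ackr4*, *Madcam1* and *Marco* had 6.24, 5.68 and 3.05 CPM, which also overlapped. *Marco* and *Lyve1*, both genes of lymphatic endothelium, lead the last of these.

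*Sox18* reached all 7 of these clusters. It stood at 226 CPM in the capillary-like cluster (212 to 239) and at 183 CPM in the arterial-like one (137 to 238), with overlapping intervals. It stood at 115 CPM in the high endothelial venule-like cluster, at 84.1 CPM in the one led by *Ackr4* and at 82.6 CPM in the one led by *Vwf* and *Selp*. The clusters led by *Marco* and *Madcam1* were lowest, at 32.0 and 17.0 CPM.

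*Sox7* was flatter. Its levels ran from 139 CPM in the cluster led by *Vwf* and *Selp* through 135 CPM in the capillary-like cluster, 115 CPM in both the *Ackr4*-led and high endothelial venule-like clusters, to 101 CPM in the arterial-like cluster (68.4 to 145), and each neighbour in this order overlapped the next. Of the endothelial clusters, only those led by *Marco* (44.3 CPM) and *Madcam1* (23.4 CPM) stood below that range.

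*Sox4* had another order in the same barcodes. Among the endothelial clusters it was highest in the one led by *Ackr4*, at 208 CPM (194 to 222), then 127 CPM in the capillary-like and 95.1 CPM in the high endothelial venule-like cluster. It stood at 65.3 CPM in the one led by *Madcam1*. The clusters led by *Marco* (39.3 CPM) and by *Vwf* and *Selp* (37.0 CPM) and the arterial-like cluster (27.1 CPM, 11.7 to 53.3) overlapped. Of the endothelial clusters, the arterial-like one thus had the highest *Sox17* and the lowest *Sox4* value. *Sox9* had 0 to 5 UMIs per cluster. The 24 barcodes led by collagen genes had 157 CPM of *Sox4* (108 to 222), which overlapped the cluster led by *Ackr4*. They had 123 CPM of *Sox17* (79.6 to 182), 152 CPM of *Sox18* and 54.1 CPM of *Sox7*, from 11 to 32 UMIs.

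**Figure D5:**
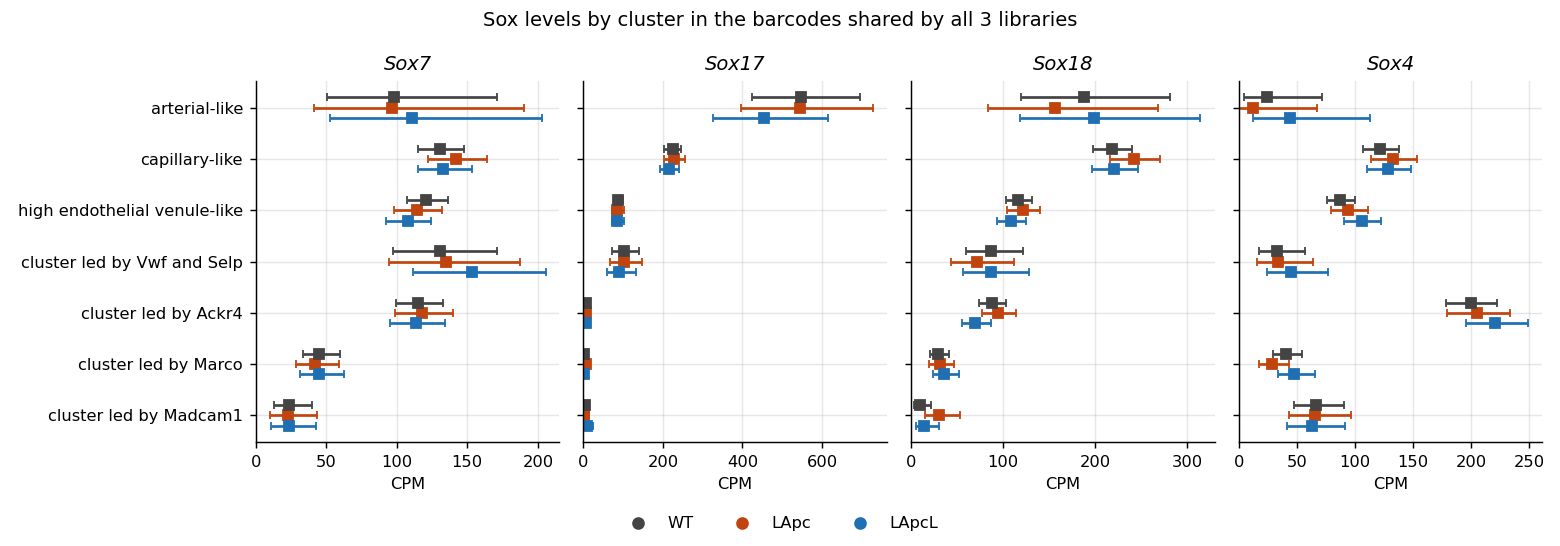
Levels of *Sox7*, *Sox17*, *Sox18* and *Sox4* in CPM in the clusters of barcodes shared by all 3 libraries, shown for each library with exact Poisson 95% intervals; the libraries are the same barcodes and not replicates. *Sox17* is highest in the arterial-like cluster (453 to 547 CPM) and *Sox4* in the cluster led by *Ackr4* (200 to 221 CPM), in each library.

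The same shared barcode tended to hold the same member in different libraries. In a second random thinning to 500 UMIs, separate from the one behind the shares above, 168 shared barcodes held a *Sox17* UMI in WT, and 28.0% of them held one in LApc, against 4.82% of the barcodes without it in WT. For *Sox4* the shares were 23.6% and 4.32%, for *Sox18* 20.6% and 6.00%, and for *Sox7* 16.7% and 4.42%. With the 3 libraries summed and 3069 barcodes thinned to 2000 UMIs, 151 barcodes held both *Sox17* and *Sox18*, where the product of their shares gives 95.7. *Sox7* met *Sox18* in 82 barcodes (product 90.5) and *Sox17* in 78 (product 76.1). All 3 group F genes were found in 19 barcodes, 2 of them in 254, 1 in 993 and none in 1803.

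Genes whose level was most like a member's were ranked by Pearson's r of log2(CPM + 1), over 13 cluster and library groups of library-specific barcodes for *Sox4* and *Sox9* and over 7 shared clusters for the others. The groups share libraries and differ in depth, so r is a description. The nearest to *Sox4* was *Mex3a* (r = 0.976), which was on the list of crypt genes, followed by *Lrrc8b* and *Esrp2*. Those nearest to *Sox9* were *Lpp* (0.979), *Asah1* and *Cd99l2*. For *Sox17* they were *Uaca* (0.997), *Ceacam1* and *Epas1*, for *Sox18* *Phldb1* (0.995), *Plekhg5* and *Slc9a3r2*, and for *Sox7* *Stox2* (0.985), *Fam129a* and *Cav1*.

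Related gene lists gave the setting of these changes in library-specific barcodes. Of 12 crypt genes, 9 were at least 2-fold higher in LApc than in WT, among them *Lgr5*, *Ascl2*, *Prox1* and *Mex3a*, and *Olfm4* was lower, where 19.1% of all tested genes were higher and 7.9% lower. Between LApcL and LApc, *Lgr5* was higher (90.0 against 34.7 CPM) and *Ephb3* and *Prox1* lower (152 against 426 CPM for *Prox1*, which is on the next list as well). Of 12 endothelial regulators, 11 could be compared between LApcL and LApc. *Hey1*, *Klf2* and *Prox1* were at least 2-fold lower and none higher, where 3.75% of all tested genes were lower and 1.27% higher. Of 10 regulators compared between LApc and WT, *Gata2*, *Hey1*, *Klf2* and *Prox1* were at least 2-fold higher and 0 lower. Of 7 arterial and group F-linked genes compared between LApcL and LApc, *Cldn5* was lower, at 0.236 against 7.37 CPM, and 6 did not reach 2-fold. Of 6 genes of that list compared between LApc and WT, *Cldn5* and *Notch1* were at least 2-fold higher and 0 lower. In shared barcodes all 12 regulators were at least 2-fold above the library-specific level in WT and LApcL, and 11 in LApc, where *Prox1* was the exception. Of all tested genes, 29.4%, 22.3% and 20% were higher in these 3 contrasts.

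Among the other 14 *Sox* genes, 5 were at least 2-fold higher in LApc than in WT, of 10 tested, beside 19.1% of all tested genes. *Sox21* stood at 1.002 CPM in WT, 64.3 CPM in LApc and 71.9 CPM in LApcL. *Sox11*, of group C like *Sox4*, stood at 0.0614, 15.9 and 20.0 CPM. Between LApcL and LApc only *Sox2* passed 2-fold, of 9 tested, with 256 UMIs in LApc and 9 in LApcL, and none in WT. It was lower in LApcL, as were 3.75% of all tested genes. In WT, LApc and LApcL library-specific barcodes *Sox6* stood at 7.77, 11.7 and 11.4 CPM, *Sox12* at 3.35, 5.50 and 6.65 CPM, and *Sox5* at 0.0614, 2.78 and 5.32 CPM. *Sox13* was found in both kinds of barcode, at 17.3 to 18.4 CPM in shared barcodes and 4.81 to 17.6 CPM in library-specific ones.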

How the data were processed

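The authors deposited, for each of 3 10x libraries, raw UMI counts per gene and barcode, with no normalisation, on mm10 (GRCm38). The submitters' processing notes name Cell Ranger 2.1.1, and per the file headers the count matrices were made with Cell Ranger 6.0.1. Barcodes under 500 UMIs were absent. The members and lists were chosen with earlier results of these data known. Counts were summed per library and barcode group and scaled to CPM, and genes with fewer than 10 UMIs in both groups together were not called. Intervals were Poisson, conditional binomial or Clopper-Pearson at 95%. Log2 ratios used the counts as they stood, and for a gene at 0 the bound of the fold used 3 counts. With 1 library per group no test was possible. Clusters used scanpy 1.11.5 (2000 variable genes, 20 components, 20 neighbours, Leiden 0.5) without *Sox* and mitochondrial genes. Doublets were kept in the main values. Scrublet's own threshold marked 3 to 9 barcodes per library, so the highest scores were left out at 0.8% per 1000 barcodes as an alternative. Named genes were the 5 members, the other *Sox* genes at 5 CPM or more, 3 fixed lists and the 3 most alike genes per member. *Sox2* (called 2-fold), *Lef1* and the endothelial and epithelial marker genes were named in addition. Python 3.11.15, numpy 2.4.6 and scipy 1.17.1 were used.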

Additional observations from a re-analysis of the deposited data

Results flagged for a closer look

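*Sox17* also appeared in barcodes of 1 library with under 10000 UMIs and at most 20% mitochondrial UMIs. The main comparisons did not use these barcodes, and those of them with at least 2000 UMIs entered 1 alternative. In LApc, 1423 such barcodes held 86 *Sox17* UMIs, or 17.3 CPM (13.9 to 21.4), above the WT control library, where 1784 such barcodes held 23 UMIs, or 3.93 CPM (2.49 to 5.90). *Pecam1* stood at 1.01 CPM in these LApc barcodes and at 24.6 CPM in the WT ones, and the part of endothelial transcripts in the WT value was not tested. In LApcL the level was 2.03 CPM, from 18 UMIs.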

How the results depend on the processing

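In the alternatives tried, the 20 log2 ratios past 2-fold in LApcL against LApc, LApc against WT and shared against library-specific barcodes kept their sign in 108 of 108 recomputations and stayed past 2-fold in 105. The ratios of LApcL against WT were not recomputed, only their count. Of 205 recomputed ratios and shares, 120 lay within the main value's interval and 85 outside it. Counts of members past 2-fold were equal to the main count in 72 of 76 recomputations. Of those past 2-fold higher, LApc against WT went from 4 to 3 with median-of-ratios factors or 10 CPM added, and LApcL against WT from 3 to 2 with 10 CPM added. Leaving out the enterocyte-like cluster or the one led by *Npy* from LApcL against WT, both chosen after seeing the data, left its counts as they were. Ratios are given in the order of the members. For LApcL against LApc, a minimum of 20000 UMIs gave *Sox4* 0.50, and one of 2000 UMIs gave *Sox4* 0.43 and *Sox9* 0.24. A mitochondrial limit of 10% gave *Sox9* 0.31 and *Sox18* -1.74. Weighting every barcode equally gave *Sox4* 0.43, *Sox17* -2.75 and *Sox18* -1.71, and median-of-ratios factors gave *Sox4* 0.44 and *Sox9* 0.23. Adding 10 CPM gave *Sox17* -1.38 and *Sox18* -0.28, and left 1 member at least 2-fold lower, as a larger added value shrinks the ratios of low genes. Without the cluster led by *Npy*, an alternative chosen after seeing the data, the ratios were *Sox4* 0.42, *Sox9* 0.19, *Sox17* -1.61 and *Sox18* -1.19.

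For LApc against WT, a minimum of 2000 UMIs gave *Sox4* 2.32, and the 10% limit gave *Sox4* 2.01, *Sox9* 1.32, *Sox17* 4.81 and *Sox18* 1.79. Without the enterocyte-like cluster the ratios were *Sox4* 1.50, *Sox9* 1.06 and *Sox18* 1.68, and without the cluster led by *Npy* *Sox4* 2.43, *Sox9* 1.47, *Sox17* 3.74 and *Sox18* 1.16. Equal weights gave *Sox17* 4.90. Median-of-ratios factors gave *Sox4* 1.96, *Sox9* 0.98 and *Sox17* 4.58. Adding 10 CPM gave *Sox4* 2.30, *Sox9* 1.29, *Sox7* 0.027, *Sox17* 1.81 and *Sox18* 0.28. Leaving out the highest doublet scores moved no ratio of either comparison out of its interval.

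For shared against library-specific barcodes, adding 10 CPM gave *Sox9* -2.90, *Sox7* 3.51, *Sox17* 3.39 and *Sox18* 3.64 in WT, *Sox9* -4.16, *Sox7* 3.50, *Sox17* 1.59 and *Sox18* 3.47 in LApc, and *Sox9* -4.40, *Sox7* 3.47, *Sox17* 2.90 and *Sox18* 3.60 in LApcL. Equal weights gave *Sox17* 6.89 and *Sox18* 6.86 in WT, *Sox17* 2.04 in LApc, and *Sox17* 4.72 and *Sox18* 7.01 in LApcL. Shared barcodes of at least 1000 UMIs gave *Sox17* 1.69 in LApc and 4.18 in LApcL, and those at most 20% mitochondrial gave *Sox17* 6.59 in WT. Apart from the shrinkage by the added CPM, the cause of these shifts was not tested. Shares moved with the depth to which barcodes were thinned, and 5 of 30 shares left their interval with another seed.

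No paired analysis was possible because each group had 1 library. The spread between mice and cultures was not measured, and the intervals cover counting error only. *Sox7* in library-specific barcodes rests on 1 to 19 UMIs and *Sox9* in shared ones on 5 or 6, and a difference in *Sox9* between the libraries was not detectable there at this depth.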
